A study of Mus musculus with 9 samples.

Results

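The genes described here are 10 immediate early genes of neuronal activity, Fos, Fosb, Fosl2, Jun, Junb, Egr1, Egr3, Npas4, Nr4a1 and Arc. They were taken by symbol from a read count table of 18956 symbols, and 10 of 10 were present and passed the filter on low counts. Bulk RNA was sequenced from tissue labelled as the anterior paraventricular nucleus of the thalamus of BALB/c mice, in 9 libraries that form 3 groups of 3. The stressed SHNK mice went through 5 days of social defeat, in which a mouse is exposed to an aggressive one, and received (2S,6S)-HNK, a hydroxynorketamine formed from ketamine. The stressed saline mice went through the same 5 days of defeat and received saline, and the non-stressed saline mice received saline with no defeat. The sources used here give no age, sex, dose or interval from the last defeat or treatment to tissue collection. Nothing in the labels ties each library to an animal of its own, so p-values measure the spread between these libraries, which may be technical.

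Immediate early genes are switched on within minutes of strong synaptic input, through transcription factors that are already present and are modified by calcium and MAP kinase signals. Most of them encode transcription factors. FOS and JUN family proteins pair through a leucine zipper into AP-1, EGR proteins bind DNA through zinc fingers, NPAS4 is a neuronal factor induced by calcium entry, and NR4A1 is an orphan nuclear receptor. ARC is the exception, a synaptic protein that promotes removal of AMPA receptors from the surface. In the paraventricular thalamus, a midline nucleus with glutamatergic neurons, Fos is widely used to map responses to stress. CREB is one of the activators of these genes and binds the cyclic AMP response element, or CRE, and AP-1 binds related elements.

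Promoter sequences were matched for 7 of the 10 genes in the RefSeq table of GRCm38.p6, and Egr1, Egr3 and Arc were not matched. The 250 bases before the start are shown 5′ to 3′ on the strand of the gene for 4 of them. Fos, Junb and Nr4a1 are shown because they varied widely between libraries of a group, and Jun because it varied little. Fosl2 also varied widely and is not shown. The RefSeq start of Nr4a1 used here lies within the longer annotated gene. Capitals mark the core of the CRE, TGACG, read on either strand (CGTCA where it lies on the other strand), and the AP-1 site TGACATCA.
Fos, chr12:85473640-85473889, plus strand: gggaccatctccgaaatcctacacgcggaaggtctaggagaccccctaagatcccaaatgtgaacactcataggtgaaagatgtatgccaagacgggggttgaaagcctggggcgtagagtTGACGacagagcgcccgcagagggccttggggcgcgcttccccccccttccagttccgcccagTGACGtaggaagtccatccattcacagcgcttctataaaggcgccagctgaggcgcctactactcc
Junb, chr8:84978749-84978998, minus strand: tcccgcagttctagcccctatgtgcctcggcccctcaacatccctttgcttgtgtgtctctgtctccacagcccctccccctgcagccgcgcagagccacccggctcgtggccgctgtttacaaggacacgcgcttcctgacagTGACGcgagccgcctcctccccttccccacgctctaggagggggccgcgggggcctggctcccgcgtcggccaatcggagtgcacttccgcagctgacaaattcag
Nr4a1, chr15:101266596-101266845, plus strand: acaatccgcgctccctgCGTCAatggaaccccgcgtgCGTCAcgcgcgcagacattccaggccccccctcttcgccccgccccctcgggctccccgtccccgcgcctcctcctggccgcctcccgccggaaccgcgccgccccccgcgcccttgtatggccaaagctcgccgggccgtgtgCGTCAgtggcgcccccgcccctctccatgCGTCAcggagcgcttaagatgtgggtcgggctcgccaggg
Jun, chr4:95052223-95052472, minus strand: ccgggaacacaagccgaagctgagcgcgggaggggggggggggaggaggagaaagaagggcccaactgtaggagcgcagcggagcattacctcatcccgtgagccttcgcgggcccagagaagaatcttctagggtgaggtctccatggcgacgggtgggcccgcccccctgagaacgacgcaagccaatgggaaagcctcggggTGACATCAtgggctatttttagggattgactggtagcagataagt

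TGACG occurred in 5 of the 7 matched promoters, those of Fos, Fosb, Junb, Nr4a1 and Npas4, against 17.8% of all 32851 promoters of the same length in the table. Bases G and C made up 58.4% (Fos) to 74.4% (Nr4a1) of the 7, and the shares of all promoters were not matched for base composition. Fos held 2 copies, the nearer one 66 to 62 bases before the start, Npas4 held 2 and Nr4a1 held 4. Fosl2, which varied widely between libraries of a group, held 0, as did Jun, which varied little. Fosb and Npas4, whose spread was usual for their level, held 1 and 2. A link between copies and spread was not tested. At least 2 copies were found in 3.9% of all promoters and at least 3 in 0.688%. TGACATCA was found in Jun alone among the 7, 45 to 38 bases before the start, and in 2.93% of all promoters. The palindromic full CRE TGACGTCA, which contains TGACG on both strands, was found in 0 of the 7 and in 1.55% of all promoters. The AP-1 site TGACTCA (4.46% of all promoters) and the CArG box, the element of serum response factor (1.47%), were also found in 0 of the 7. GCGGGGGCG, a site of EGR proteins, was found in Fosl2, Fosb and Nr4a1 and in 2.57% of all promoters, and TATAAA in Fos and in 12.4%. Both strands were searched for every motif, with exact patterns only. A count of 0 therefore does not cover sites with another letter, sites farther upstream than 250 bases, or the genes not matched. These are matches of letters within 250 bases and carry no information on binding in this tissue.

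Levels are in CPM, read counts scaled to library size with TMM factors. Total counts ran from 32307869 to 51569143 per library. The 15 markers of midline thalamus, among them Calb2 and the glutamate transporter Slc17a6, were all tested, with a mean log2 CPM of 6.70 ± 0.034 in stressed SHNK, 6.57 ± 0.026 in stressed saline and 6.65 ± 0.11 in non-stressed saline (SD, n = 3 each). Markers of the habenula, which borders this nucleus, were also detected, at levels that differed between groups. Over 12 tested habenula markers the mean log2 CPM was 1.70 ± 0.27 in stressed SHNK, 5.31 ± 0.76 in stressed saline and 3.23 ± 0.60 in non-stressed saline. The summed CPM of these markers ran from 654 to 849, from 755 to 1271 and from 610 to 644 in the same order of groups, and Chrnb3, Chrnb4 and Slc18a3 of the 15 listed were not analysed here. In bulk tissue, fewer cells of a type and less RNA per cell cannot be told apart.

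Per kilobase of exon, the level of Fos and Jun was highest, at 18.6 ± 7.67 and 21.1 ± 0.702 CPM per kb in stressed SHNK, 18.2 ± 4.86 and 16.8 ± 0.675 in stressed saline, and 22.6 ± 9.51 and 20.1 ± 1.62 in non-stressed saline (SD, n = 3 each). Their order differed between groups, and the spread of Fos covered the level of Jun in each group. Over all 9 libraries the next levels were Junb at 7.10 CPM per kb, Egr1 at 5.25, Arc at 4.13 and Nr4a1 at 1.92. In stressed SHNK the levels of Junb (6.41 ± 1.85) and Egr1 (5.39 ± 0.369) did not differ beyond their spread, nor did those of Egr1 (4.89 ± 1.32) and Arc (5.30 ± 0.442) in stressed saline. Npas4 at 0.325 and Fosl2 at 0.243 CPM per kb were low, and Egr3 at 0.0705 and Fosb at 0.0669 were lowest. Neither of these last neighbouring pairs differed beyond its spread in stressed SHNK. Egr3 had 4 to 22 counts per library and Fosb 9 to 30, where counting error alone is wide.

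**Figure D1:**
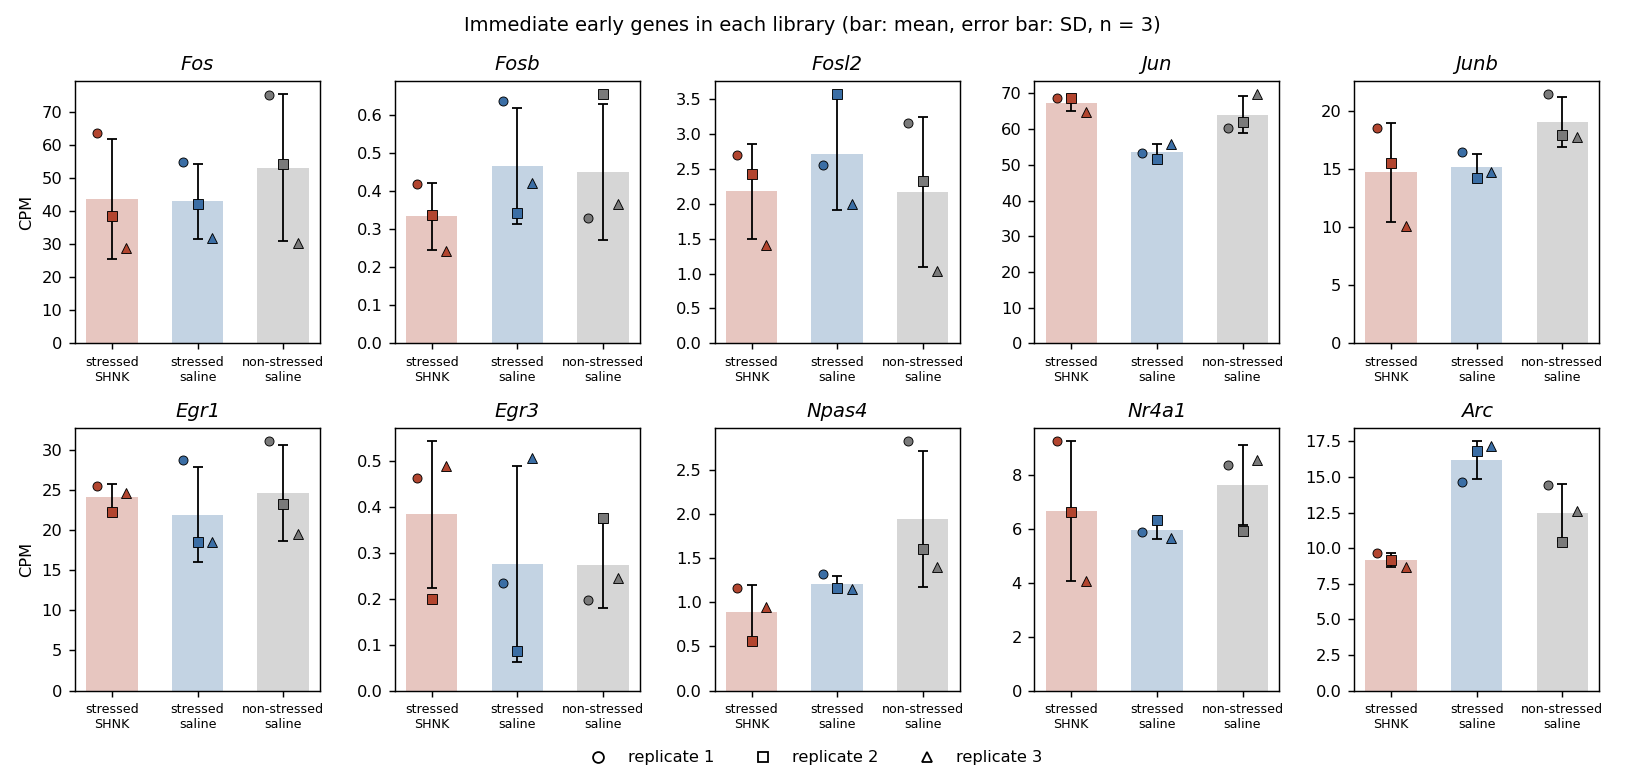
CPM of each gene (vertical axes, linear from 0) in stressed SHNK, stressed saline and non-stressed saline libraries, left to right in each panel. Bars are means, error bars SD of 3 libraries, and circles, squares and triangles are replicates 1, 2 and 3. Arc lies below 10 CPM in all 3 stressed SHNK libraries and above 14 CPM in all 3 stressed saline libraries, while the Fos points of each group are spread over 1.71-fold to 2.47-fold.

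In defeated mice, the metabolite was set against saline. Arc fell and Jun rose, and the other 8 genes did not pass the test. Arc had 9.67, 9.15 and 8.66 CPM in stressed SHNK libraries, against 14.6, 16.8 and 17.1 CPM in stressed saline libraries. The groups did not overlap, and the lowest stressed saline library stood well above the highest SHNK library. Arc lies on chr15:74669083-74672570 (minus strand, GRCm38), and its log2 fold change was -0.82 ± 0.13 (standard error), a fold of 0.566 with a 95% interval from 0.465 to 0.690 (edgeR quasi-likelihood test, adjusted p = 0.00496). Arc passed in all 9 fits made without 1 library (edgeR, highest adjusted p = 0.0370) and in the 8 other settings run for this comparison.

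Jun, a partner of FOS proteins in AP-1, had 68.6, 68.6 and 64.7 CPM in stressed SHNK libraries, against 53.2, 51.7 and 55.9 CPM in stressed saline libraries. All SHNK libraries stood above all stressed saline libraries. The difference was small, with a log2 fold change of 0.33 ± 0.084 and a fold of 1.26 (95% interval from 1.11 to 1.42, edgeR adjusted p = 0.0350). Without any single library of the 2 groups compared it missed the threshold (adjusted p from 0.0543 to 0.138), as it did with the replicate block (adjusted p = 0.0531). Jun lies on chr4:95049034-95052222 (minus strand, GRCm38) and is overlapped on the other strand by the long noncoding gene Junos. The strand setting of the counting was not stated, so reads from the pair could not be separated, but Junos was counted at no more than 2.41 CPM in any library.

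The 2 calls, 1 up and 1 down, stand beside 6.41% of all 18194 tested genes called in this comparison, 2.45% higher and 3.96% lower. The same 2 genes had an unadjusted p under 0.05, beside 23.3% of all tested genes, and 5 of the 10 had a log2 fold change below 0, beside 51.3%. The groups did not overlap for 2 of the 10 genes, Arc and Jun, against 30.4% of all tested genes. The median log2 fold change of the 10 was -0.0056, beside -0.0091 over all tested genes. The habenula markers moved in the same comparison, with 11 of 12 down and 1 up, as did 9 of 15 ependyma, 3 of 11 choroid plexus and 7 of 12 astrocyte markers, all down. Of the other marker lists, 5 of 15 midline thalamus and 4 of 5 blood genes rose, 1 of 14 vessel genes fell, and 0 of 12 microglia and 0 of 12 oligodendrocyte genes passed by edgeR (1 and 4 at unadjusted p under 0.05). Their part in the fall of Arc and the rise of Jun was not tested.

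For the remaining AP-1 genes the intervals were wide. Fos had 63.7, 38.5 and 28.8 CPM in stressed SHNK libraries, against 54.7, 42.1 and 31.9 CPM in stressed saline libraries. The ranges covered each other, and the log2 fold change was 0.026 ± 0.30, with a 95% interval from 0.648-fold to 1.60-fold. Junb, which can restrain the activity of JUN in AP-1, had 18.6, 15.5 and 10.2 CPM in stressed SHNK and 16.5, 14.3 and 14.8 CPM in stressed saline (interval from 0.753-fold to 1.26-fold). Its end overlaps Prdx2 on the other strand, which was counted at 382 CPM or more in every library, and reads in the overlap could not be separated. Fosl2 had 2.69, 2.43 and 1.41 CPM in stressed SHNK and 2.55, 3.58 and 2.00 CPM in stressed saline. Its interval ran from 0.474-fold to 1.37-fold. Fosb ran from 0.244 to 0.421 CPM in stressed SHNK and from 0.343 to 0.637 CPM in stressed saline, with an interval from 0.398-fold to 1.31-fold.

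Among the other transcription factors, Egr1 had 25.5, 22.3 and 24.6 CPM in stressed SHNK libraries, against 28.8, 18.5 and 18.5 CPM in stressed saline libraries. The single high stressed saline library lay above all SHNK libraries and the other two lay below them, and the interval ran from 0.839-fold to 1.44-fold. Nr4a1 had 9.27, 6.62 and 4.07 CPM in stressed SHNK and 5.90, 6.32 and 5.66 CPM in stressed saline, so the SHNK libraries lay on both sides of a narrow stressed saline range. Npas4 had 1.16, 0.557 and 0.950 CPM in stressed SHNK and 1.32, 1.16 and 1.15 CPM in stressed saline, with an interval from 0.445-fold to 1.20-fold. Egr3, with the fewest counts, ran from 0.199 to 0.489 CPM in stressed SHNK and from 0.0857 to 0.507 CPM in stressed saline, with an interval from 0.631-fold to 3.22-fold. The edgeR adjusted p of these 8 genes ran from 0.453 for Npas4 to 0.972 for Fos.

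**Figure D2:**
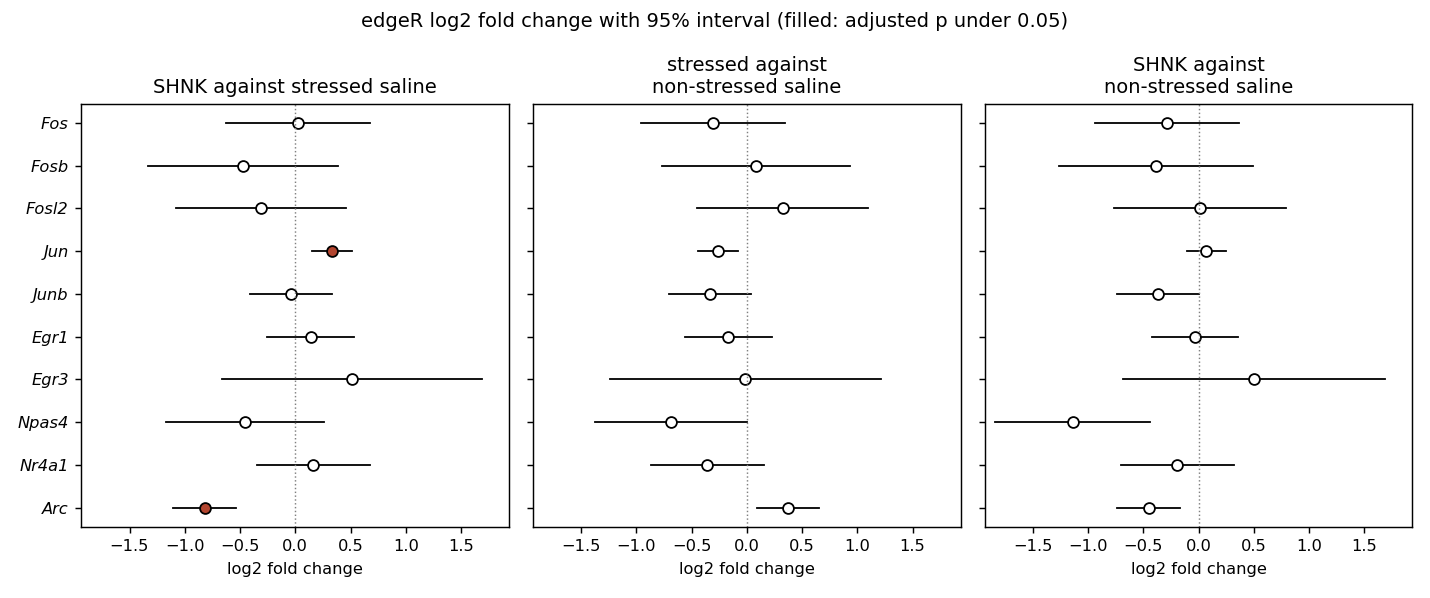
Log2 fold change (horizontal axes) of the 10 genes, 1 row each, in 3 panels: SHNK against stressed saline, the stress comparison within saline, and SHNK against non-stressed mice. Points are edgeR estimates, lines 95% intervals, and filled points have an adjusted p under 0.05, which only Arc (-0.82) and Jun (0.33) reached, both in the first panel.

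Defeated and undefeated mice were compared under saline, where 0 of the 10 genes passed by edgeR, beside 1.17% of all tested genes (1.15% higher and 0.0165% lower). DESeq2 called 0 and limma voom 0, and an unadjusted edgeR p under 0.05 was reached by 3 genes, Jun, Arc and Npas4, beside 9.45% of all tested genes. Jun had 53.2, 51.7 and 55.9 CPM in stressed saline, against 60.2, 62.0 and 69.9 CPM in non-stressed saline, with a log2 fold change of -0.26 ± 0.084 (adjusted p = 0.224). Arc had 14.6, 16.8 and 17.1 CPM in stressed saline, against 14.4, 10.4 and 12.6 CPM in non-stressed saline, with 0.37 ± 0.13 (adjusted p = 0.296). For both genes the ranges did not overlap, but for Arc the nearest libraries of the 2 groups differed by a small part of either range. Npas4 had 1.32, 1.16 and 1.15 CPM in stressed saline, against 2.83, 1.60 and 1.40 CPM in non-stressed saline, with -0.69 ± 0.32 (adjusted p = 0.527).

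Junb was the fourth gene without overlap, with 16.5, 14.3 and 14.8 CPM in stressed saline and 21.5, 17.9 and 17.8 CPM in non-stressed saline (log2 fold change -0.33 ± 0.17, adjusted p = 0.619). The groups did not overlap for 4 of the 10 genes, against 12.9% of all tested genes, but 2 of these 4 had an unadjusted p close to or above 0.05 (0.0497 for Npas4 and 0.0773 for Junb). In the same comparison 10 of 12 habenula, 9 of 15 ependyma, 3 of 11 choroid plexus and 2 of 12 astrocyte markers rose and none of these fell. The habenula mean was 5.31 ± 0.76 in stressed saline and 3.23 ± 0.60 in non-stressed saline. The part of these markers was not tested. Fos had 54.7, 42.1 and 31.9 CPM in stressed saline, against 75.1, 54.1 and 30.4 CPM in non-stressed saline. The wide non-stressed range held the whole stressed range, and the 95% interval ran from 0.514-fold to 1.27-fold. Log2 fold changes of the others were -0.17 ± 0.18 for Egr1, -0.36 ± 0.24 for Nr4a1, 0.32 ± 0.36 for Fosl2, 0.083 ± 0.40 for Fosb and -0.013 ± 0.57 for Egr3. In all, 7 of the 10 were below 0, beside 54.5% of all tested genes, and the median was -0.21, beside -0.017.

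SHNK against non-stressed saline set the treated defeated mice against mice never stressed. Of the 10 genes 0 passed by edgeR, beside 0.0055% of all tested genes. DESeq2 called 1 and gave no adjusted p for Npas4, Fosb, Fosl2 and Egr3, and limma voom called 0. An unadjusted edgeR p under 0.05 was reached by 2 genes, Arc and Npas4, beside 18.3% of all tested genes. Arc had 9.67, 9.15 and 8.66 CPM in stressed SHNK, against 14.4, 10.4 and 12.6 CPM in non-stressed saline. All SHNK libraries were lower, with a log2 fold change of -0.45 ± 0.13 (edgeR adjusted p = 0.113). It was the gene called by DESeq2 (adjusted p = 0.0341), and edgeR called it without non-stressed saline replicate 2, its lowest library there (adjusted p = 0.0373). Npas4 had 1.16, 0.557 and 0.950 CPM in stressed SHNK, against 2.83, 1.60 and 1.40 CPM in non-stressed saline, with no overlap and a log2 fold change of -1.14 ± 0.33 (adjusted p = 0.108). The ranges of the other 8 genes overlapped, and 21.3% of all tested genes did not overlap. The log2 fold change was below 0 for 7 of the 10, beside 50.8%, and the median was -0.24, beside -0.0049. In the same libraries the habenula mean was 1.70 ± 0.27 in stressed SHNK and 3.23 ± 0.60 in non-stressed saline. Of 12 habenula and 12 astrocyte markers 0 passed by edgeR, but 7 of each list had an unadjusted p under 0.05. Log2 fold changes were below 0 for 10 of the habenula and 12 of the astrocyte markers. The part of either list was not tested. Jun was at 67.3 ± 2.24 CPM in stressed SHNK and 64.1 ± 5.17 CPM in non-stressed saline (SD, n = 3 each), with an interval from 0.927-fold to 1.19-fold.

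Asked for any difference among the 3 groups, edgeR called Arc (adjusted p = 0.0110) and none of the other 9, beside 4.88% of all tested genes. An unadjusted p under 0.05 was reached by 3 of the 10, beside 22% of all tested genes. Jun (adjusted p = 0.0657) and Npas4 (adjusted p = 0.105) missed the threshold, and 3 genes, Arc, Jun and Npas4, passed by DESeq2 and by limma voom. Arc missed it without stressed saline replicate 2 (adjusted p = 0.0534) or SHNK replicate 3 (adjusted p = 0.0584). The 3 pairwise comparisons share libraries, so their results are not independent of each other.

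Within groups, the genes differed widely in how far libraries lay apart. The pooled SD of log2 CPM within groups was 0.55 for Fos, larger than in 99.8% of the 2432 tested genes within 0.5 log2 units of its mean level, whose median SD was 0.12. It was also large for its level in Egr1 (0.30, larger than in 97.4%), Fosl2 (0.60, 96.3%), Nr4a1 (0.39, 95.4%) and Junb (0.28, 95.2%). Jun had an SD of 0.079, larger than in 17.8% of genes of like level, and Arc one of 0.16, larger than in 47.2%. Jun and Arc, the genes that passed the test with SHNK, had the smallest spread of the 10. Egr3 (0.74, 85.7%), Npas4 (0.43, 71.4%) and Fosb (0.42, 35.3%) lay within the spread usual at their low counts.

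**Figure D3:**
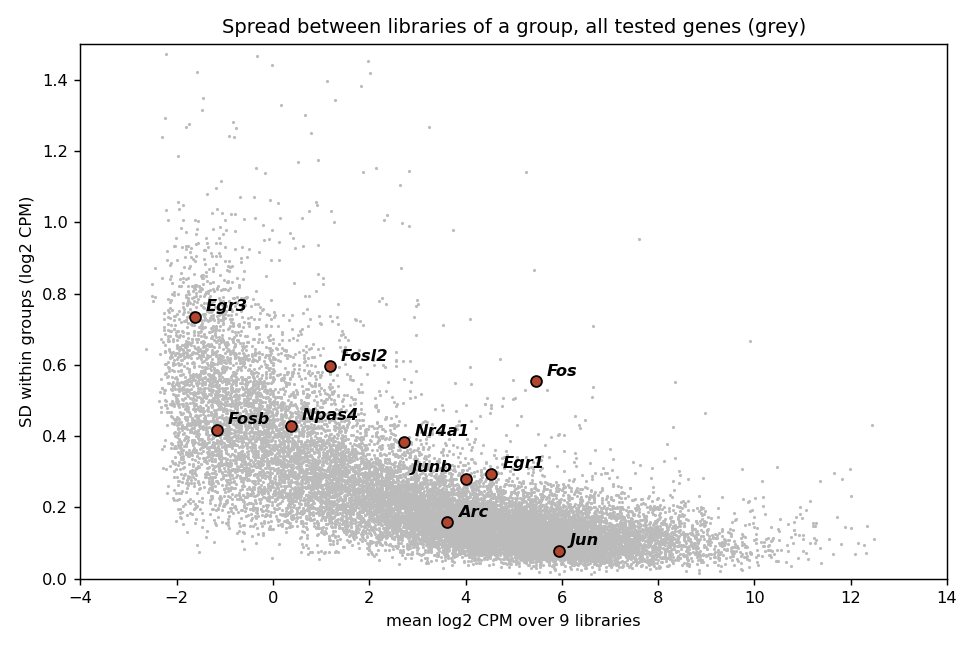
SD of log2 CPM within groups (vertical axis) against mean log2 CPM over 9 libraries (horizontal axis) for all tested genes (grey) and the 10 immediate early genes (red, named). Fos, at an SD of 0.55, lies above nearly all genes of like level, and Jun, at 0.079, in the lower part of the cloud. The axis leaves out 9 genes with an SD above 1.5.

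The genes rose and fell together between libraries in part. In stressed SHNK, replicate 1 was above the group mean for 10 of the 10 genes and was the highest library for 9 of them, all but Egr3, with Jun in a near tie with replicate 2 (68.618 and 68.616 CPM), while it was the highest for 35.7% of 13563 other genes whose mean level was 1 or more in log2 CPM. Replicate 3 of this group was the lowest for 7 of the 10, against 37.3% of other genes, and replicate 2 was the lowest for Egr1, Egr3 and Npas4. In stressed saline, replicate 1 was the highest for 5 genes, Fos, Fosb, Junb, Egr1 and Npas4, against 32.8% of other genes. In non-stressed saline, replicate 1 was the highest for 6 genes, Fos, Fosl2, Junb, Egr1, Arc and Npas4, also against 32.8%. Fos, Junb, Egr1 and Npas4 were highest in replicate 1 of each group, and Fos was lowest in replicate 3 of each. The labels do not say whether the numbers pair libraries across groups. An effect shared by same-numbered libraries was not tested for these genes.

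Averaged over the 10 genes, the deviation from the group mean in log2 CPM was 0.32, -0.11 and -0.21 in SHNK replicates 1, 2 and 3, 0.13, -0.12 and -0.0094 in stressed saline, and 0.20, 0.037 and -0.24 in non-stressed saline. The mean hides unlike members. Egr3 deviated by -1.05 and 1.01 in stressed saline replicates 2 and 3, the reverse of Fos in the last of these, where Fos deviated by -0.39. Among the 42 other immediate early genes tested, 29 were above the group mean in SHNK replicate 1 and 13 in SHNK replicate 3, beside 50.3% of other genes in each. In replicate 1 of stressed saline and of non-stressed saline, 22 of the 42 were above it, beside 51.7% and 51.1%. In stressed saline replicate 2, where the mean deviation of the 10 was -0.12, 27 of the 42 were above it, beside 49.3%. The habenula mean in SHNK replicate 1 was 2.01, against 1.55 and 1.54 in the other SHNK libraries. In non-stressed saline it was highest in replicate 3 (3.91), where Fos was lowest. In stressed saline it was lowest in replicate 1 (4.55), where Fos was highest. SHNK replicate 1 was above the group mean for 14 of 15 ependyma, 10 of 11 choroid plexus and 11 of 12 oligodendrocyte markers. The same held for 7 of 12 habenula, 7 of 15 midline thalamus and 9 of 14 vessel markers. For astrocytes it was 6 of 12, for microglia 3 of 12 and for blood 1 of 5. The part of these markers in the spread of the 10 genes was not tested.

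**Figure D4:**
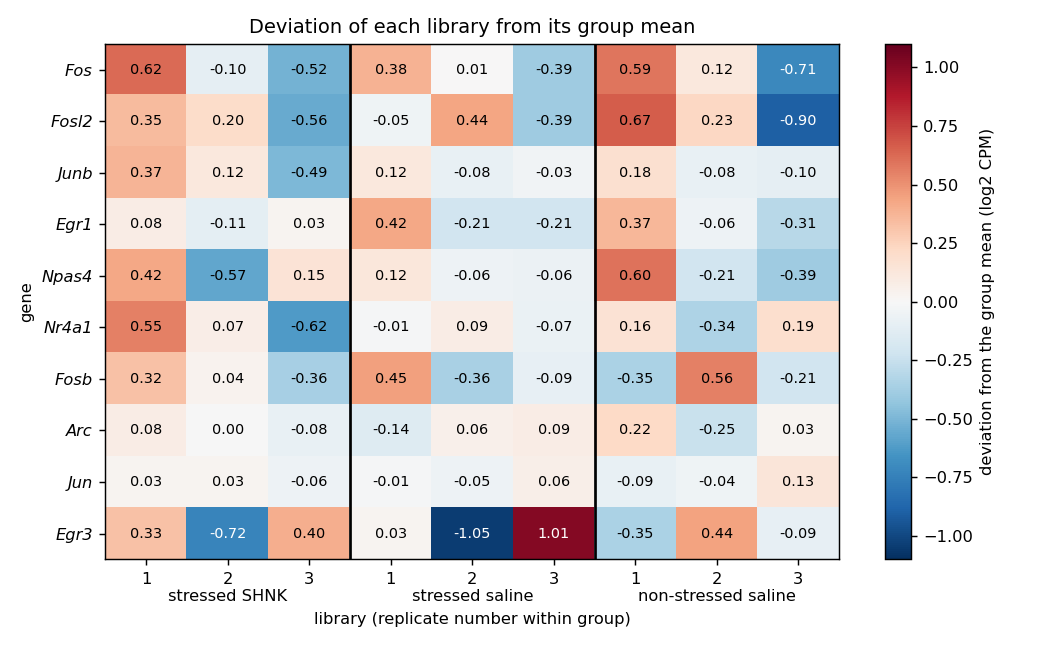
Deviation of each library (columns, by group and replicate number) from its group mean in log2 CPM (colour and printed value) for the 10 genes (rows). Red is above and blue below the group mean. The column of stressed SHNK replicate 1 is above the mean for all 10 genes, and the rows of Jun and Arc are pale throughout, with no value beyond 0.25 in size.

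Likeness was counted over the 9 pairs of libraries within groups, as the number of pairs in which a gene differed in the same direction as Fos. Fosl2, Junb, Egr1 and Npas4 each followed Fos in 8 of 9 pairs, which 4.54% of the 13563 other genes reached. For Egr1 and Npas4, 1 of these 8 pairs was nearly tied, stressed saline replicates 2 and 3 (values below). For Junb the near tie was between non-stressed saline replicates 2 and 3 (17.92 and 17.79 CPM). At least 7 pairs were reached by 14.4% of the other genes. Nr4a1 and Fosb followed Fos in 6, reached by 31.8%. Arc followed it in 5, Jun in 4 and Egr3 in 3, near or below the median of 5 for other genes. Egr1 and Npas4 had the same order of libraries in 9 of 9 pairs, but in 1 of these, stressed saline replicates 2 and 3, both genes were nearly tied (18.48 and 18.47 CPM for Egr1, 1.157 and 1.154 CPM for Npas4), well within counting error. Over all 45 pairs of members the median was 5, with 13 pairs of genes at 7 or more and 2, Egr3 with Fosl2 and Egr3 with Nr4a1, at 2. For comparison, the share of other genes at 7 or more ran from 11.1% for Fosb to 17.5% for Nr4a1. Arc and Egr3, which had no pair at 7 or more, are left out of this range.

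**Figure D5:**
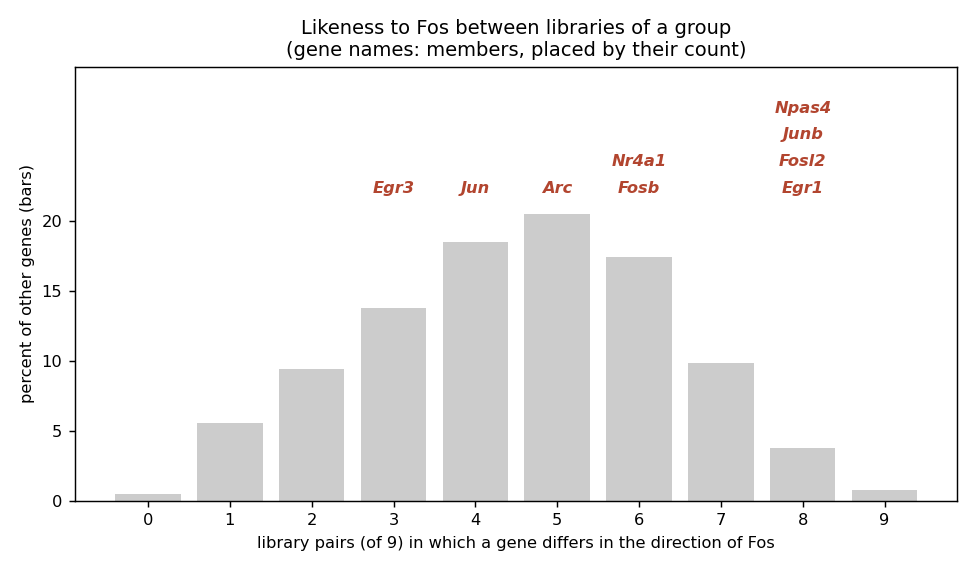
Number of within-group library pairs, of 9, in which a gene differed in the direction of Fos (horizontal axis) against the percent of 13563 other genes at that number (grey bars, vertical axis). The names of the other 9 immediate early genes are placed above their own number, and Egr1, Fosl2, Junb and Npas4 stand at 8, where 3.76% of other genes lie.

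Other genes of the pathway were read from lists. Of 42 other immediate early genes tested, 5 rose and 1 fell in SHNK against stressed saline, and 36 did not pass (edgeR adjusted p, here and for the lists that follow). Over all tested genes 2.45% rose and 3.96% fell in this comparison. Nr4a2, a nuclear receptor of the family of Nr4a1, had 2.21, 1.61 and 0.896 CPM in stressed SHNK, against 20.6, 75.2 and 39.3 CPM in stressed saline and 7.43, 4.82 and 10.9 CPM in non-stressed saline. The 3 groups were fully apart, and the order was that of the habenula means, 1.70, 5.31 and 3.23. Nr4a2 fell by 4.81 ± 0.46 on the log2 scale in SHNK against stressed saline (adjusted p = 0.000187) and rose by 2.54 ± 0.40 in stressed against non-stressed saline (adjusted p = 0.00915, but 0.0536 without non-stressed saline replicate 1). Nr4a1 did not pass in either comparison, at 0.16 ± 0.24 and -0.36 ± 0.24. The part of habenula RNA in Nr4a2 was not tested.

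The phosphatase Dusp1, which inactivates MAP kinases, had 77.9, 74.6 and 51.4 CPM in stressed SHNK, against 41.6, 46.3 and 36.7 CPM in stressed saline and 70.5, 59.4 and 63.6 CPM in non-stressed saline. It was higher in all SHNK than in all stressed saline libraries, by 0.71 ± 0.14 (adjusted p = 0.0118, but 0.0627 without SHNK replicate 2). Dusp1 fell by 0.63 ± 0.14 in stressed against non-stressed saline (adjusted p = 0.0425), a call lost by limma voom, held in 2 of the 9 fits without 1 library and lost in the other 7, those without any library of these 2 groups and without SHNK replicate 2. Klf6, a zinc finger factor, rose by 0.42 ± 0.076 with SHNK (adjusted p = 0.00842, and 0.0523 without SHNK replicate 3). Rheb, the GTPase that activates mTORC1, rose by 0.45 ± 0.091 (adjusted p = 0.0131), and Rgs2, a brake on G protein signalling, by 0.40 ± 0.10 (adjusted p = 0.0316). The ERK phosphatase Dusp6 rose by 0.46 ± 0.12 (adjusted p = 0.0404). Rheb, Rgs2 and Dusp6 were called in 6, 5 and 4 of the 9 fits without 1 library, with losses without stressed saline replicate 2 and SHNK replicates 2 and 3 for each, without stressed saline replicate 1 for Rgs2, and without stressed saline replicate 3 and SHNK replicate 1 for Dusp6.

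In the other comparisons of this list, 1 rose (Nr4a2) and 1 fell (Dusp1) of 42 in stressed against non-stressed saline, beside 1.17% of all tested genes called. In SHNK against non-stressed saline 0 passed by edgeR, and 7 of 42 had an unadjusted p under 0.05, beside 18.3% of all tested genes. The median log2 fold changes of the 42 were -0.045, -0.055 and -0.12 for SHNK against stressed saline, for the stress comparison and for SHNK against non-stressed saline, beside -0.0091, -0.017 and -0.0049 over all tested genes.

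Of 13 genes of the later activity response, 1 passed in SHNK against stressed saline, a share near the 6.41% of all tested genes called. By direction, 1 rose and 0 fell, beside 2.45% and 3.96% of all tested genes. Rasgrp1, a guanine nucleotide exchange factor, rose by 0.36 ± 0.088 (adjusted p = 0.0290). It was called in 4 of the 9 fits without 1 library and lost without stressed saline replicate 1, 2 or 3 or SHNK replicate 2 or 3. The growth factor Bdnf was at 42.0 ± 5.74 CPM in stressed SHNK and 34.3 ± 2.64 CPM in stressed saline (SD, n = 3 each), with a log2 fold change of 0.29 ± 0.11 (adjusted p = 0.123). The prohormone convertase Pcsk1 rose in stressed against non-stressed saline by 1.09 ± 0.24 (adjusted p = 0.0387), as 1 of 13, while 1.15% of all tested genes rose. The call was lost by limma voom and with the replicate block. It held in 3 of the 9 fits without 1 library and was lost without any non-stressed saline library, stressed saline replicate 2 or 3 or SHNK replicate 3. In SHNK against non-stressed saline 0 of the 13 passed by edgeR, and 2 had an unadjusted p under 0.05, beside 18.3% of all tested genes.

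Of 34 upstream kinases, transcription factors and coactivators, 3 rose in SHNK against stressed saline and 0 fell, beside 2.45% and 3.96% of all tested genes. Counted in either direction, the share was near the 6.41% of all tested genes called. These were Mef2a (0.41 ± 0.085, adjusted p = 0.0145) and Mef2c (0.52 ± 0.12, adjusted p = 0.0183), transcription factors that respond to calcium, and Camk4 (0.44 ± 0.10, adjusted p = 0.0207), a nuclear kinase that phosphorylates CREB. They were called in 7, 6 and 5 of the 9 fits without 1 library, with losses without SHNK replicate 3 for each, SHNK replicate 2 for Mef2a and Camk4, and stressed saline replicates 2 and 3 for Mef2c and Camk4. Srf, serum response factor, was at -0.34 ± 0.12 (adjusted p = 0.109). In stressed against non-stressed saline 0 of the 34 passed by edgeR, and 5 had an unadjusted p under 0.05, beside 9.45% of all tested genes. In SHNK against non-stressed saline 0 passed by edgeR, and 8 had an unadjusted p under 0.05, beside 18.3%.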

How the data were processed

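The authors deposited 1 table of read counts per gene symbol, whole numbers with no further normalization, for 9 libraries. Per the labels' protocols, RNA was extracted with a Direct-zol kit and 100 ng of total RNA entered SMARTer Ultra low and TruSeq library construction. The submitters' processing notes name HISAT2, StringTie and Trimmomatic 0.38, and the builds mm10 and GRCm38. The sources used here give neither the role of each nor the annotation or strand setting. Each of the 18956 symbols has at least 1 count in every library, so genes with a 0 in any library are not analysed here.

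Genes were filtered with filterByExpr in edgeR 4.0.16 (R 4.3.3, minimum count 10, minimum total 15), which kept 18194. After TMM scaling, 1 quasi-likelihood model held all 3 groups. P-values were adjusted by Benjamini-Hochberg across every tested gene and called under 0.05. Intervals are 95% from the standard error and the model's degrees of freedom. Log2 CPM used a prior count of 2. Exon lengths are unions of GENCODE M21 exons. Alternatives were DESeq2 1.42.0, limma 3.58.1 voom with sample quality weights, other scalings and filters, a fit of the 2 compared groups, a replicate block and leaving out each library. The fit was tested on simulated data.

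The members and lists were chosen with earlier results of these data known. Named genes were the 10 members, from each activity list every gene past the threshold and up to 4 with the smallest p per comparison, and up to 8 other genes most like the members' mean deviation. The lists were other immediate early genes, later activity genes, upstream regulators, and markers of habenula, midline thalamus, ependyma, choroid plexus, astrocytes, vessels, microglia, oligodendrocytes and blood.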

Additional observations from a re-analysis of the deposited data

How the results depend on the processing

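Egr3 and Fosb had 4 to 30 counts per library, where counting error alone is wide. The spread between libraries was large for their level in Fos, Fosl2, Junb, Egr1 and Nr4a1, but not in Jun, Arc or Npas4. Arc in SHNK against stressed saline and the absence of calls among the members in stressed against non-stressed saline held in every setting run, though Egr3 and Fosb were not tested under the filter of 1 CPM.

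Of the 10 members, 2 were called in SHNK against stressed saline, 1 with the replicate block, and 1 to 2 without 1 library. In SHNK against non-stressed saline 0 were called, 1 by DESeq2 (of the 6 members to which it gave an adjusted p), and 0 to 1 without 1 library. For any difference among the 3 groups 1 was called, 3 by DESeq2, 3 by limma voom, 2 at an adjusted p of 0.1, and 0 to 2 without 1 library.

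Over all genes, 213 were called in stressed against non-stressed saline (470 by DESeq2, 102 by limma voom, 370 at an adjusted p of 0.1, 40 to 306 without 1 library) and 1167 in SHNK against stressed saline (2004, 2377, 2182 and 176 to 1385 in the same order). In SHNK against non-stressed saline 1 was called (1004 by DESeq2, 0 with upper-quartile scaling, no filter or the filter of 1 CPM, 6 with the replicate block, 9 with the 2 groups alone, 520 at an adjusted p of 0.1, 0 to 749 without 1 library). Any difference gave 888 (2108 by DESeq2, 1824 by limma voom, 1802 at an adjusted p of 0.1, 187 to 1492 without 1 library). The lowest counts came without stressed saline replicate 2 (40 and 187), SHNK replicate 3 (176), or, for SHNK against non-stressed saline, non-stressed saline replicate 3, SHNK replicate 1 or SHNK replicate 3 (0 each). The highest came without stressed saline replicate 1 (306) or non-stressed saline replicate 2 (1385, 749 and 1492). The cause of these shifts was not tested.

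Signs turned for genes far from the threshold. In SHNK against stressed saline the log2 fold change of Fos was -0.068 by limma voom and -0.019 with the replicate block, and without 1 library ran from -0.35 to 0.25 for Fos, -0.23 to 0.17 for Junb and -0.15 to 0.41 for Nr4a1. In stressed against non-stressed saline Egr3 was at 0.0027 by DESeq2 and 0.0078 with upper-quartile scaling, and without 1 library the values ran from -0.59 to 0.028 for Fos, -0.22 to 0.43 for Fosb, -0.017 to 0.72 for Fosl2, -0.42 to 0.039 for Egr1 and -0.73 to 0.43 for Egr3. In SHNK against non-stressed saline they ran from -0.65 to 0.054 for Fos, -0.33 to 0.41 for Fosl2, -0.17 to 0.18 for Egr1 and -0.49 to 0.057 for Nr4a1.

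The replicate numbers are shared between groups but nothing in the labels pairs the samples. Over 13570 genes, same-numbered libraries of different groups had deviations with r from -0.24 to 0.26, and differently numbered ones from -0.42 to 0.22. The numbers were not taken as pairs in the main fit. A correlation over all genes cannot show whether a few genes share an effect of the number. With the replicate block Jun in SHNK against stressed saline had an adjusted p = 0.0531 and Arc 0.00918, and no other member's call changed. The edgeR adjusted p of Fos went with the block from 0.667 to 0.240 in SHNK against non-stressed saline. It went from 0.892 to 0.525 in stressed against non-stressed saline and from 0.759 to 0.252 for any difference. In SHNK against stressed saline it went from 0.972 to 0.945.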

Other observations

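By Pearson r of deviations from the group means over the 9 libraries, the genes outside the members that were most like the mean deviation of the 10 were Ecpas (r = 0.98), Pnn (r = 0.98), Nhsl2, 9430041J12Rik, Slk, Abca5, Shroom1 and Setdb1 (the last 6 from 0.95 to 0.96). They were the top of 13563 genes compared, and the measure is a description with no p. None of these 8 was on a list of activity genes.

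Egr4, a zinc finger factor of the Egr1 family whose mean log2 CPM of -0.031 lay below the minimum for that search, had r = 0.96. Egr4 and Nr4a3, a nuclear receptor, were chosen after their values were seen. Others of the 42 other immediate early genes ran the other way, among them Gadd45b (r = -0.80) and Pim1 (r = -0.71). Egr4 had 1.49, 0.656 and 0.3802 CPM in stressed SHNK, 1.85, 0.771 and 0.817 CPM in stressed saline and 1.60, 1.22 and 0.589 CPM in non-stressed saline, highest in replicate 1 of each group. Nr4a3 had 2.31, 1.51 and 0.978 CPM in stressed SHNK, 3.21, 2.63 and 2.00 CPM in stressed saline and 2.96, 2.22 and 0.932 CPM in non-stressed saline, with Fos's order of libraries in all 3 groups. At least 7 of 9 library pairs ran in the direction of Fos in 15 of the 42 other immediate early genes (35.7%), 0 of 13 later genes, 10 of 34 upstream genes (29.4%) and 14.4% of 13563 other genes. The median number of pairs was 5 both for the 42 and for the 13563 other genes.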
